A study of Mus musculus with 19 samples.

Results

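The genes described here are 4 Krüppel-like transcription factors, Klf2, Klf3, Klf6 and Klf13, and a pair of receptors that steer T cells through lymphoid organs, S1pr1 and Ccr7. They were taken by symbol from the deposited tables of CD8 and CD4 T cells. All 6 were present among the 25639 genes of each table, and all 6 passed the filters on low values in both cell types. Their levels were read in 19 RNA sequencing libraries of T cells that had infiltrated liver metastases, sorted from 11 mice at day 30 after Venus-AKTPM/LOH colorectal cancer cells were placed in the spleen. All mice carried floxed Tet2 alleles. The TET2 enzyme oxidises the methyl group of 5-methylcytosine, a step in DNA demethylation. Controls (Tet2fl/fl) have no Cre in their label. Vav1CreTet2KO mice delete Tet2 with a Cre driven by Vav1, which acts in all blood lineages, so that myeloid and B cells of the host lose the gene too. Cd4CreTet2KO mice delete it with a Cre driven by Cd4, which is switched on in the thymus in precursors of both CD4 and CD8 cells. The CD8 cells gave 3 Tet2fl/fl, 3 Vav1CreTet2KO and 4 Cd4CreTet2KO libraries, and the CD4 cells gave 3 of each genotype. The labels used here give no age for the mice.

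Krüppel-like factors bind GC-rich and CACCC sequences in DNA through zinc fingers. In resting T cells KLF2 is switched on by FOXO1 and by MEF2 factors downstream of the kinase ERK5. It keeps the cells quiescent, drives transcription of S1pr1, and is lost after strong T cell receptor signals. S1PR1 senses sphingosine 1-phosphate and lets T cells leave lymphoid organs and tissues, while CCR7 brings them into lymph nodes and their T cell zones. Low KLF2 and S1PR1 are known features of T cells that stay resident in tissue.

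Promoter windows are shown for Klf2 and Klf3, the member known to sit upstream of S1pr1 and the member whose level differed between genotypes. The RefSeq table (build GRCm38.p6) held 4 of the 6 members, Klf2, Klf3, Klf6 and Klf13. The windows are the 250 bases upstream of the gene start, 5′ to 3′ on the gene's strand. Capitals mark the GC box GGGCGG, the CACCC box CACCC and the consensus site of MEF2 factors, with matches on either strand and with neighbouring matches allowed to overlap. The Klf2 window is chr8:72318812-72319061 on the plus strand.
Klf2: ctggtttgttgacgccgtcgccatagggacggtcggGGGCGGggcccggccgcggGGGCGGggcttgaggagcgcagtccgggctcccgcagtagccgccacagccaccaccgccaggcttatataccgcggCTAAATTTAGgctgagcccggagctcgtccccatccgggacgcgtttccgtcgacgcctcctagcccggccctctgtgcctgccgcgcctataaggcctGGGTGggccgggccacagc
The Klf3 window is chr5:64803271-64803520 on the plus strand.
Klf3: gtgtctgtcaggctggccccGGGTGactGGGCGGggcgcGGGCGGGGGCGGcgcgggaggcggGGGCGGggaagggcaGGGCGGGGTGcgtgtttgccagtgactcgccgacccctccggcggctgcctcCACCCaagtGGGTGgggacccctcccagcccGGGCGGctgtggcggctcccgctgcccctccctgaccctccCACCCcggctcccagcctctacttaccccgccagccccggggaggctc
The Klf2 window held 2 GC boxes, 1 CACCC box and 1 MEF2 consensus site, the last 118 bases before the start. A MEF2 site was present in 0.509% of all 32817 windows of the same length in the table, and it was searched for after the sequence had been seen. The Klf3 window held 6 GC boxes and 5 CACCC boxes, numbers reached or passed by 0.887% and 0.664% of all windows, and no MEF2 consensus site. At least 1 GC box was found in 32.7% of windows and at least 1 CACCC box in 52.0%. The Klf6 window had 1 GC box and no CACCC box but 4 matches to the CCAAT box CCAAT, and the Klf13 window had 3 GC boxes, 1 CACCC box and 2 CCAAT boxes. A CCAAT box was found in 33.8% of all windows. All 4 windows were rich in CpG dinucleotides, with 29 in Klf2, 23 in Klf3, 21 in Klf6 and 24 in Klf13 against a median of 6 over all windows. These matches describe the sequence, and neither binding nor methylation was measured.

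Reads on genes ranged from 8189300 to 20327809 in the CD8 libraries and from 707866 to 17575534 in the CD4 libraries. CD4 Vav1CreTet2KO replicate 1 was the shallowest, and its members rested on 53 to 166 reads each. The summed level of 2 CD8 genes was 231.0 to 427.6 RPKM (read counts divided by gene length and by library depth) in CD8 libraries and at most 8.01 in CD4 libraries. The summed level of the 2 CD4 genes, Cd4 and Cd40lg, was 82.8 to 178.6 RPKM in CD4 libraries, 0 to 1.35 in CD8 controls, 8.50 to 12.6 in CD8 Vav1CreTet2KO and 0.914 to 8.33 in CD8 Cd4CreTet2KO libraries. Cd4 itself was at 0 in all CD8 controls and at most 7.68 RPKM in the CD8 knockouts. Summed levels of 6 natural killer cell genes were 9.51 to 21.5 RPKM in CD8 controls, 42.0 to 141.1 in CD8 Vav1CreTet2KO and 20.997 to 91.6 in CD8 Cd4CreTet2KO libraries. Of these genes 4 were tested in CD8 cells, and 2 had a positive log2 difference for both knockouts together. Their median was 0.37, beside -0.14 for all genes. In CD8 cells Cd40lg and Tyrobp, an adaptor that myeloid cells also carry, were called higher for both knockouts (1.98 and 3.26, limma adjusted p 0.0169 and 0.0235). Tet2 itself read 6.57 to 8.06 RPKM in CD8 controls, 2.93 to 6.28 in CD8 Vav1CreTet2KO and 3.01 to 7.57 in CD8 Cd4CreTet2KO libraries, and the CD4 groups overlapped. A value over the whole gene also counts exons that Cre leaves in place, so it does not check the deletion. Of the CD8 libraries, Cd4CreTet2KO replicates 1 and 2 stood apart with macrophage and monocyte genes at 268.0 and 140.2 RPKM in sum, against at most 47.5 in the others. Neutrophil genes stood apart there too, at 77.4 and 46.3 RPKM in sum, against at most 3.35 in the other CD8 libraries. Summed levels of 10 dendritic cell genes were 19.3 to 140.5 RPKM in CD8 controls, 342.9 to 1351 in CD8 Vav1CreTet2KO and 126.9 to 1014 in CD8 Cd4CreTet2KO libraries. The summed level of 16 dissociation and immediate early genes was 3042 to 4185 RPKM in CD8 controls and 1409 to 2490 in the CD8 knockouts. It was 4035 to 5815 in CD4 controls and 1138 to 2665 in the CD4 knockouts. In CD8 cells the list's median log2 difference was -0.097 for Vav1CreTet2KO and -0.49 for Cd4CreTet2KO, beside -0.11 and -0.15 for all genes. Of its 16 genes 7 and 2 had a positive sign. In CD4 cells the medians were -0.91 and -0.38, beside -0.16 and 0.003, with 2 and 3 positive. The part of these differences in the results below was not tested. In bulk libraries, fewer cells that express a gene and less RNA per cell cannot be told apart.

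Klf3 was the 1 member called between knockout and control libraries, and it was called higher in knockout CD8 cells. KLF3 is mainly a repressor that binds CACCC boxes and competes with activating KLFs for them. Its gene lies at chromosome 5, 64960731 to 64990244, plus strand, in the tables' own coordinates, which differ from GRCm38.p6 and carry no build name. In CD8 Tet2fl/fl libraries Klf3 read 1.77, 4.22 and 2.17 RPKM. The Vav1CreTet2KO libraries read 13.6, 6.79 and 16.2 RPKM. The Cd4CreTet2KO libraries read 12.3, 13.2, 18.05 and 8.43 RPKM. All 7 knockout libraries thus lay above all 3 controls, and the knockout groups overlapped each other. On the log2(RPKM + 1) scale, which understates changes of low genes, Klf3 was higher by 1.80 (SE 0.37) in Vav1CreTet2KO and by 1.92 (SE 0.34) in Cd4CreTet2KO cells. The adjusted p-values from limma over all 10224 tested genes were 0.0317 and 0.0343. For both knockouts jointly the difference was 1.86 (SE 0.31, limma adjusted p 0.0105), a fold of 3.64 on that scale.

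These calls stood against a low background. Higher in Vav1CreTet2KO were 0.45% of all tested genes, higher in Cd4CreTet2KO were 0.0782%, and higher in both together were 0.734%. Higher with no overlap between groups were 6.92%, 3.85% and 2.27% of genes in the same order. The 3 comparisons share the same 3 controls, so they are not separate lines of evidence. In the authors' deposited table Klf3 had a log2 fold change of 2.27 (false discovery rate 1.12e-05) for Vav1CreTet2KO and of 2.45 (1.68e-07) for Cd4CreTet2KO in CD8 cells.

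The sign of the Klf3 difference held in each alternative run, with log2 values from 1.57 to 2.44 over the 3 comparisons, but the single-knockout calls did not. Klf3 passed in 7 of 18 alternatives for Vav1CreTet2KO, in 8 of 18 for Cd4CreTet2KO and in 15 of 17 for both together. For both together the call was lost without CD8 Tet2fl/fl replicate 1 (limma adjusted p 0.125) and without replicate 3 (0.0625). Without the pair of libraries with macrophage genes the value for both together was 1.85 (limma adjusted p 0.0456). For Vav1CreTet2KO that setting gave an adjusted p of 0.0550 in limma. For Cd4CreTet2KO it gave 1.90 with an adjusted p of 0.269 in limma. For Vav1CreTet2KO the call was lost without any of the controls (limma adjusted p 0.0503 to 0.192), without Vav1CreTet2KO replicate 1 (0.0967) or 3 (0.0710), or without Cd4CreTet2KO replicate 2 (0.0517). For Cd4CreTet2KO it was lost without any of the controls (limma adjusted p 0.0934 to 0.304) or without Cd4CreTet2KO replicate 1 (0.0644), 2 (0.135) or 3 (0.0761). With the replicate number as a block, the limma adjusted p was 0.0580 for Vav1CreTet2KO, 0.0681 for Cd4CreTet2KO and 0.0225 for both together. That number names different animals in each genotype.

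**Figure D1:**
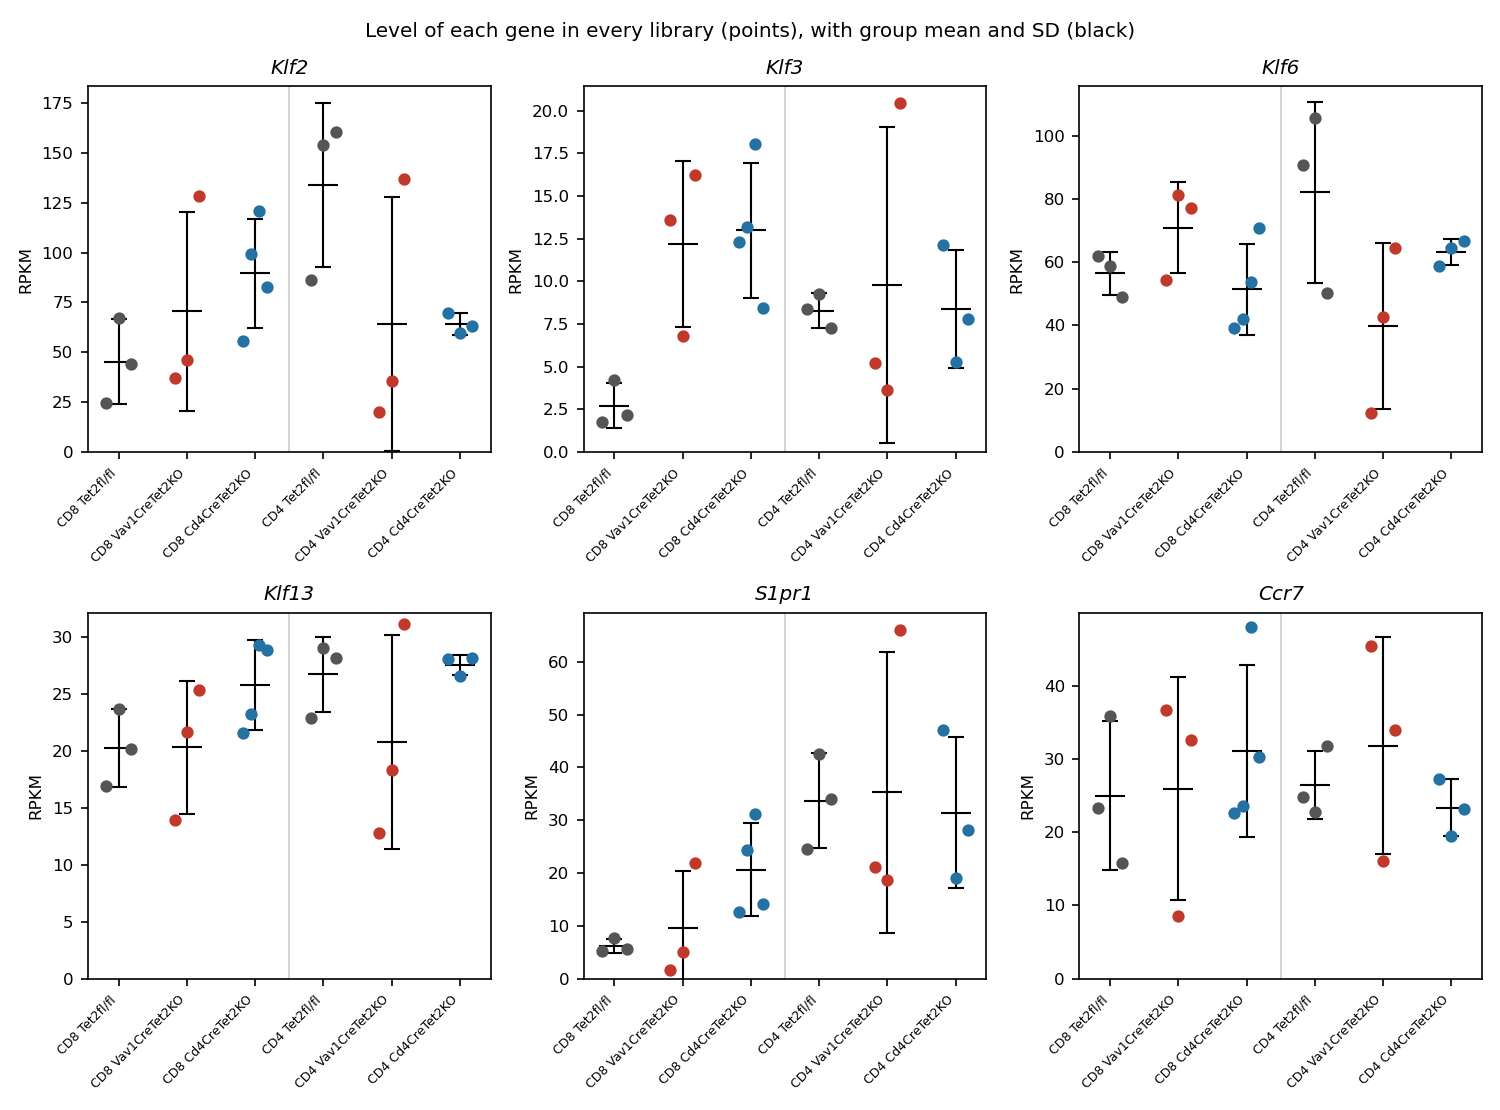
Level in RPKM (linear axes from 0) of the 6 genes in each library (points), with group mean and SD in black, the SD of S1pr1 in CD8 Vav1CreTet2KO being cut off at 0. The 3 CD8 Tet2fl/fl libraries of Klf3 sit between 1.77 and 4.22, below all other CD8 libraries.

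In CD4 cells Klf3 was not called. Controls read 8.40, 9.24 and 7.24 RPKM, Vav1CreTet2KO libraries 5.24, 3.66 and 20.4, and Cd4CreTet2KO libraries 12.1, 5.30 and 7.80. The knockouts lay on both sides of the controls, and Vav1CreTet2KO replicate 3 was the highest of all 19 libraries. The log2 fold changes were 0.43 (SE 0.55) and 0.09 (SE 0.55), with edgeR adjusted p-values of 0.825 and 1.00. By group mean Klf3 ran from CD8 Cd4CreTet2KO (12.99 ± 3.95 RPKM, SD, n = 4) through CD8 Vav1CreTet2KO (12.2 ± 4.86, n = 3) and the CD4 groups to CD8 Tet2fl/fl (2.72 ± 1.32, n = 3). In that order only the last step, from CD4 Tet2fl/fl (8.29 ± 1.00, n = 3) to CD8 Tet2fl/fl, separated groups without overlap. So the CD8 control was the low group, and 5 of the 7 CD8 knockouts lay above every CD4 library except Vav1CreTet2KO replicate 3. These steps between cell types set levels across separately made tables and were not tested.

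Klf2, the quiescence factor upstream of S1pr1, was called in neither cell type, with positive log2 differences in CD8 and negative ones in CD4 cells. Its gene lies at chromosome 8, 73072877 to 73075500, plus strand, in the tables' coordinates. CD8 controls read 24.6, 67.4 and 44.1 RPKM, Vav1CreTet2KO libraries 37.3, 46.0 and 128.1, and Cd4CreTet2KO libraries 55.8, 99.3, 120.7 and 82.6. Both knockout groups overlapped the controls, whose highest library read 67.4. The log2 difference was 0.52 (SE 0.47) for Vav1CreTet2KO and 1.02 (SE 0.44) for Cd4CreTet2KO, with limma adjusted p-values of 0.590 and 0.365. The Vav1CreTet2KO value rested on replicate 3, and without it was -0.015 (limma adjusted p 0.987). Beside it, the summed level of endothelial genes, a cell type in which KLF2 and S1PR1 are also abundant, was 5.09 to 5.85 RPKM in CD8 controls, 9.40 to 12.8 in CD8 Vav1CreTet2KO and 7.68 to 23.1 in CD8 Cd4CreTet2KO libraries. From 1 to 7 of the 10 endothelial genes were at 0 in each CD8 library. By replicate, the endothelial sum was 23.1, 13.1, 10.99 and 7.68 RPKM in the CD8 Cd4CreTet2KO libraries. The part of such cells was not tested.

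CD4 controls held the most Klf2 of all groups, at 86.4, 154.0 and 160.6 RPKM. Vav1CreTet2KO libraries read 20.2, 35.5 and 136.9, and Cd4CreTet2KO libraries 69.9, 59.6 and 63.1. The 3 Cd4CreTet2KO libraries lay below all controls, as did Vav1CreTet2KO replicates 1 and 2, while replicate 3 lay among the controls. The log2 fold change was -0.89 (SE 0.54) for Vav1CreTet2KO and -0.98 (SE 0.54) for Cd4CreTet2KO, with edgeR adjusted p-values of 0.562 and 1.00. Of all 13554 genes tested in CD4 cells 0.0295% were called for Cd4CreTet2KO, 0.00738% for Vav1CreTet2KO and 0% for both together, and 7.93% lay lower without overlap in Cd4CreTet2KO. The count of called members was 0 in each of these, and at an unadjusted p under 0.05 it was also 0 in edgeR. Of all genes 2.5% were at that level for Cd4CreTet2KO, 11.9% for Vav1CreTet2KO and 5.35% for both. For Klf2 in Cd4CreTet2KO the authors' deposited values gave -0.98, at an unadjusted p under 0.05 with a false discovery rate of 0.896. A single library decided the Vav1CreTet2KO value: without replicate 3 the fold change was -2.22 (edgeR adjusted p 0.00679), and without the shallow replicate 1 it was -0.47 (0.763). Without replicate 3, Klf2 was also called for both knockouts together (-1.60, edgeR adjusted p 0.0428). The Vav1CreTet2KO group then held only replicate 2 and the shallow replicate 1. Without replicate 3, of 14409 genes 396 were called higher and 423 lower for Vav1CreTet2KO, and 5 and 7 for both.

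The difference between cell types was tested for Klf2 and the others as an interaction in limma on log2(RPKM + 1) over 19 libraries. For Klf2 the Vav1CreTet2KO effect was 1.97 (SE 0.78) more in CD8 than in CD4 cells, and the Cd4CreTet2KO effect 2.02 (SE 0.76) more. For Klf3 these values were 1.92 (SE 0.67) and 1.96 (SE 0.65). The limma adjusted p-values over 11121 genes were 0.460 and 0.740 for Klf2 and 0.403 and 0.608 for Klf3, so no interaction passed, beside 0% and 0.0629% of all genes. The count of members at an unadjusted p under 0.05 in limma was 3 of 6 for Vav1CreTet2KO (Klf2, Klf3 and Klf6) and 2 of 6 for Cd4CreTet2KO (Klf2 and Klf3), beside 9.21% and 5.72% of all genes. Leaving out CD4 Vav1CreTet2KO replicate 3 brought the Vav1CreTet2KO interaction of Klf2 (2.74, limma adjusted p 0.0444) and of Klf3 (2.58, 0.0302) past the threshold. In that fit, of 11075 genes 87 were called higher and 68 lower, against 0 with all 19 libraries. The CD4 Vav1CreTet2KO group then held only replicate 2 and the shallow replicate 1. For each of these genes it was the 1 alternative of 24 that passed. Over the 24, the values ran from 1.39 to 2.74 for Klf2 (limma adjusted p up to 0.736). For Klf3 they ran from 1.48 to 2.58 (up to 0.702).

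**Figure D2:**
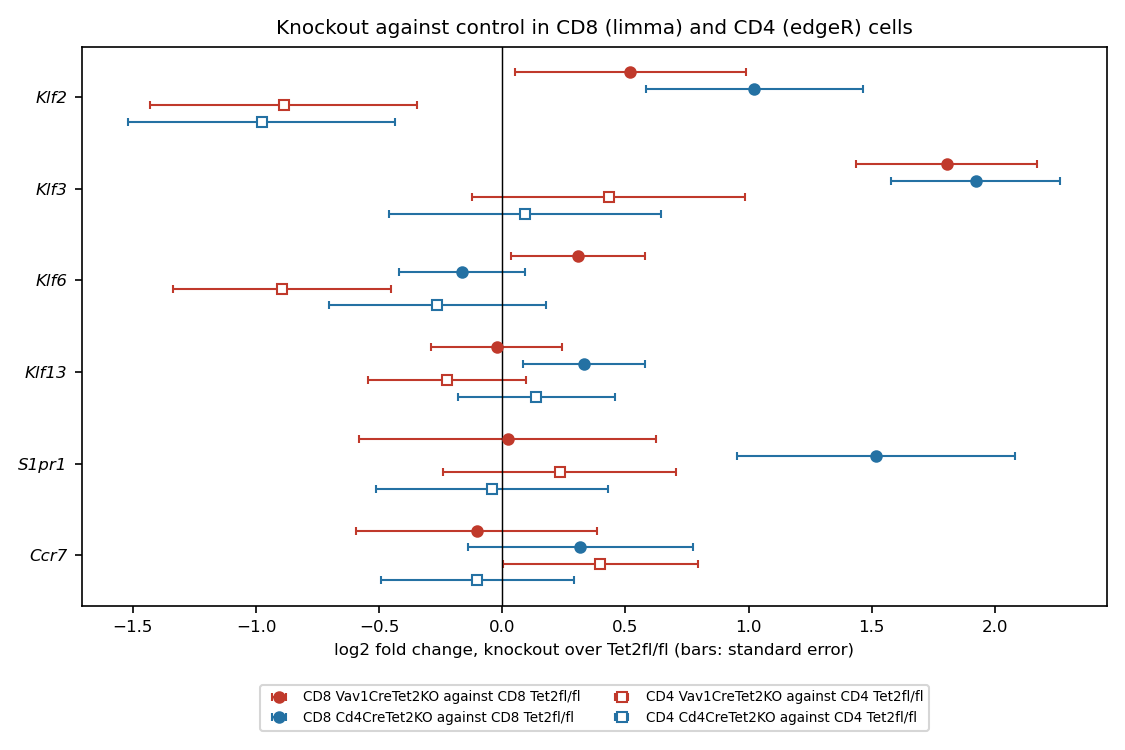
Log2 fold change of each knockout over Tet2fl/fl (points) with its standard error (bars), filled circles for CD8 cells (limma, log2(RPKM + 1)) and open squares for CD4 cells (edgeR), so sizes are on 2 scales. Klf3 in CD8 cells lies at 1.80 and 1.92, and the CD8 and CD4 points of Klf2 lie on opposite sides of 0.

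Within animals the same contrast can be seen without a test. In the 3 control animals, CD8 cells held less Klf2 than CD4 cells of the same animal, by -1.77, -1.18 and -1.84 on the log2(RPKM + 1) scale. In the 5 knockout animals with both cell types the values were 0.85, 0.37 and -0.09 for Vav1CreTet2KO and 0.78 and 0.38 for Cd4CreTet2KO. Control and knockout animals did not overlap. Klf3 had -1.76, -0.97 and -1.38 in control animals, 1.22, 0.74 and -0.32 in Vav1CreTet2KO and 0.54 and 0.10 in Cd4CreTet2KO animals, again with no overlap. Of all 11121 genes, 3.4% separated the animals in this direction. The interaction above, which did not pass, was fitted over 19 libraries with no animal term. It is therefore not a test of these paired differences as such. With the animal as a block (correlation 0.146) no member was called for an interaction either.

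Klf6 is an immediate early member of the family, induced quickly by stress and by cell handling. Its gene lies at chromosome 13, 5911481 to 5920393, plus strand, in the tables' coordinates. CD8 controls read 62.0, 58.7 and 48.9 RPKM, Vav1CreTet2KO libraries 54.5, 81.2 and 77.0 and Cd4CreTet2KO libraries 39.3, 41.9, 53.8 and 70.7. All CD8 groups overlapped, and the log2 differences of 0.31 (SE 0.27) and -0.16 (SE 0.26) were not called in limma (adjusted p 0.584 and 0.852). CD4 controls read 90.8, 105.4 and 50.1 RPKM, Vav1CreTet2KO libraries 12.5, 42.6 and 64.5, and Cd4CreTet2KO libraries 58.6, 64.5 and 66.6. The lowest value belongs to the shallowest library. The log2 fold change for Vav1CreTet2KO was -0.89 (SE 0.44, edgeR adjusted p 0.451), and -0.48 (0.560) without that library. Over the 9 fits that each left out 1 library it ran from -1.53 to -0.48 (edgeR adjusted p 0.0582 to 0.730). The authors' deposited values gave -0.91, at an unadjusted p under 0.05 with a false discovery rate of 0.408. The dissociation and immediate early sum was 1138 RPKM in the shallowest library against 4035 to 5815 in CD4 controls, and its part was not tested.

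Klf13, a ubiquitous family member that acts late in T cell activation on the chemokine gene Ccl5, was called in no comparison. Its gene lies at chromosome 7, 63536099 to 63588663, minus strand, in the tables' coordinates. Over the 10 CD8 libraries it read from 13.9 to 29.3 RPKM, and over the 9 CD4 libraries from 12.8 to 31.1. Group means ran from 20.2 ± 3.39 (SD, n = 3, CD8 Tet2fl/fl) to 27.5 ± 0.894 (n = 3, CD4 Cd4CreTet2KO), with overlap at each step. Its log2 differences from controls lay between -0.22 and 0.33, and none was called (adjusted p at least 0.650 in limma and 0.844 in edgeR).

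S1pr1, the egress receptor, was lower in CD8 than in CD4 cells of each animal. Its gene lies at chromosome 3, 115504082 to 115508721, minus strand, in the tables' coordinates. CD8 controls read 5.18, 7.76 and 5.59 RPKM and CD4 controls 24.5, 42.6 and 34.1. In all 8 animals with both cell types the CD8 value was the lower, by -3.02 to -0.58 on the log2(RPKM + 1) scale with a median of -1.88. The other 5 members had the higher value in CD8 cells in 3 or 4 of 8 animals. These levels are set across the CD8 and CD4 tables, whose scaling could be checked against counts in CD4 cells only, and the contrast was not tested.

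In CD8 cells S1pr1 lay differently in the knockouts, with no call. Vav1CreTet2KO libraries read 1.73, 4.95 and 22.0 RPKM, spread around the controls, and Cd4CreTet2KO libraries read 12.6, 24.4, 31.3 and 14.2, all above them. The log2 difference was 0.02 (SE 0.60) for Vav1CreTet2KO and 1.52 (SE 0.56) for Cd4CreTet2KO, with limma adjusted p-values of 0.991 and 0.269. S1pr1 therefore did not pass, although 3.85% of genes shared its lack of overlap. Fitted on the compared groups alone it passed (limma adjusted p 0.0325), and over its 18 alternatives the adjusted p ran from 0.0325 to 0.673. The authors' deposited table gave 1.97 with a false discovery rate of 0.0225 for Cd4CreTet2KO. Without the libraries with macrophage genes the difference was 1.64 (limma adjusted p 0.594). The direct difference between the knockouts was -1.496 (SE 0.56, limma adjusted p 0.721), where 0% of genes were called either way. CD4 Vav1CreTet2KO libraries read 21.1, 18.7 and 66.0 RPKM and CD4 Cd4CreTet2KO libraries 47.1, 19.1 and 28.1, around the controls, with log2 fold changes of 0.23 and -0.04 (edgeR adjusted p 0.890 and 1.00).

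**Figure D3:**
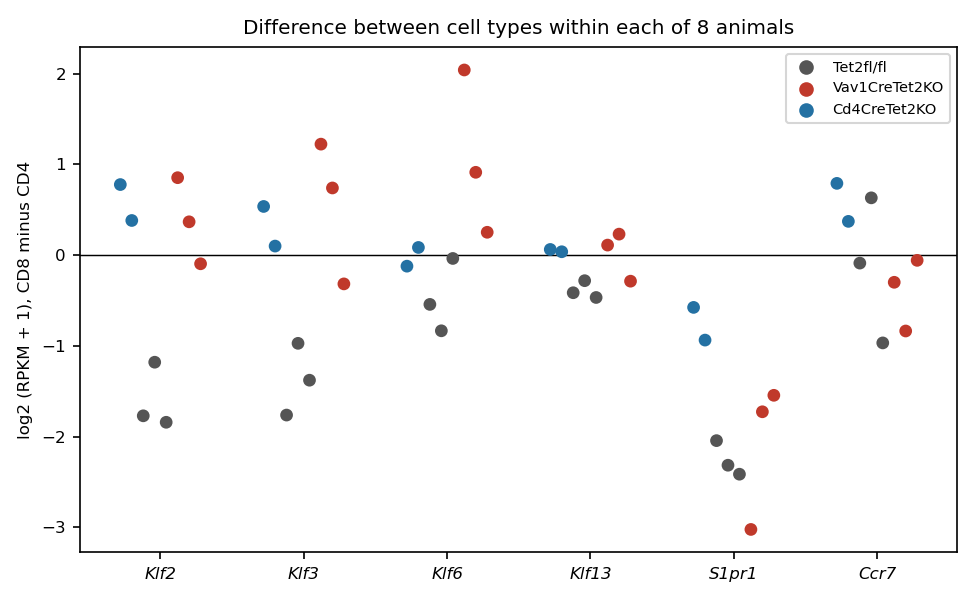
Difference in log2(RPKM + 1) between CD8 and CD4 cells of the same animal for each gene (points, 8 animals, coloured by genotype). All S1pr1 points lie below 0, from -3.02 to -0.58, and the control points of Klf2 and Klf3 lie below all knockout points.

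Ccr7, the lymph node entry receptor, showed no order by genotype. Its gene lies at chromosome 11, 99035022 to 99045903, minus strand, in the tables' coordinates. CD8 controls read 23.3, 35.9 and 15.8 RPKM, Vav1CreTet2KO libraries 36.7, 8.54 and 32.6 and Cd4CreTet2KO libraries 22.7, 23.6, 48.0 and 30.3. CD4 libraries read 22.8 to 31.7 in controls, 16.0 to 45.4 in Vav1CreTet2KO and 19.5 to 27.3 in Cd4CreTet2KO. Every group overlapped every neighbour, and the group means lay between 23.3 ± 3.90 (SD, n = 3) and 31.8 ± 14.8 (n = 3). The 4 log2 differences from controls ran from -0.10 to 0.40, with no call. Dendritic cells that have matured also carry CCR7. In the same library order, the dendritic cell sum was 29.9, 19.3 and 140.5 RPKM in CD8 controls. It was 1351, 532.6 and 342.9 in CD8 Vav1CreTet2KO and 1014, 412.6, 126.9 and 258.2 in CD8 Cd4CreTet2KO libraries. The part of such cells in the Ccr7 levels was not tested.

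Between the knockouts no member was called, beside 0% of genes in CD8 and 0.0664% in CD4 cells. The count at an unadjusted p under 0.05 was 1 in CD8 cells (S1pr1, limma) and 0 in CD4 cells (edgeR). In CD4 cells Klf2 was called without Vav1CreTet2KO replicate 3, at -1.25 (edgeR adjusted p 0.04999), against 0.09 with it. Without that library, of 14409 genes 348 were called higher and 371 lower. Over the 6 members the median log2 difference in CD8 cells was 0.16 for Vav1CreTet2KO and 0.68 for Cd4CreTet2KO, beside -0.11 and -0.15 over all tested genes. In CD4 cells it was 0.00 and -0.07, beside -0.16 and 0.00.

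Levels of the members across libraries tracked those of other T cell genes to different degrees. The likeness measure was Pearson's r of log2(RPKM + 1) over 19 libraries among 4750 genes, given as a description since libraries share depth and cell makeup. Klf2 was most like Lef1 (r 0.930), a transcription factor of naive and stem-like T cells, then Nsg2 (0.926) and Pik3ip1 (0.904), an inhibitor of PI3 kinase. Klf3 was most like Aff3 (0.886), Satb1 (0.837), a chromatin organiser of T cells, and Mylip (0.822). For Klf6 these were Ptger4 (0.934), a prostaglandin E2 receptor, Ipcef1 (0.918) and Phf1 (0.906), and for Klf13 Bicdl1 (0.892), Arhgap45 (0.883) and Arhgef1 (0.872). S1pr1 lay nearest to St6gal1 (0.919), a sialyltransferase, Pecam1 (0.895), also an endothelial marker, and Trib2 (0.844). Ccr7 had no close neighbour: its highest were Tdrp (0.623), Tapt1 (0.561) and Slc39a7 (0.558).
Within the 10 CD8 libraries r was 0.925 for Klf2 with Lef1, 0.966 for Klf3 with Aff3 and 0.898 for S1pr1 with St6gal1, and within the 9 CD4 libraries 0.947, 0.718 and 0.912. Among the members, Klf2 and S1pr1 had r 0.870 in CD8 and 0.695 in CD4 libraries, and Klf2 and Klf13 0.826 and 0.864. Klf3 and S1pr1 had r 0.512 in CD8 and 0.935 in CD4 libraries, where Vav1CreTet2KO replicate 3 was the highest in both genes, and the difference between cell types was not tested.

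Among the lists of genes that surround these members, the calls against controls were in CD8 cells. In CD8 cells 149 of 10224 genes were called for Vav1CreTet2KO, 58 for Cd4CreTet2KO and 259 for both (limma). In CD4 cells 1, 4 and 0 of 13554 genes were called in the same order (edgeR). The tests differ, so these counts do not compare the cell types. Of 14 lymphoid homing and egress genes, 13 were tested in CD8 cells and 0 passed for both knockouts together in limma, with 2 at an unadjusted p under 0.05. Of all genes tested in CD8 cells, 16.4% were at an unadjusted p under 0.05 for both knockouts, 17.3% for Vav1CreTet2KO and 12.4% for Cd4CreTet2KO. The smallest p was that of Itgb7, which encodes the integrin β7 chain used in homing to the gut. Itgb7 read 31.7, 39.5 and 48.6 RPKM in CD8 controls, 59.6, 63.3 and 59.3 in Vav1CreTet2KO and 53.4, 64.7, 70.4 and 61.4 in Cd4CreTet2KO libraries, with no overlap. Its log2 difference for both was 0.63 (SE 0.19, limma adjusted p 0.117), and DESeq2 on recovered reads called it (0.78, adjusted p 0.0108). The list's median log2 difference for both was 0.25 in CD8 and -0.051 in CD4 cells, beside -0.14 and -0.084 for all genes.

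Of 10 naive and stem-like T cell genes, 9 had a positive sign in CD8 cells for both knockouts together. At an unadjusted p under 0.05 in limma were 7 of the 10, beside 16.4% of all genes. Called higher was 1, Il7r, the interleukin 7 receptor chain that supports T cell survival, beside 0.734% of all genes. Il7r read 18.1, 29.1 and 19.5 RPKM in CD8 controls, 46.4, 62.0 and 89.0 in Vav1CreTet2KO and 34.4, 59.8, 43.5 and 36.7 in Cd4CreTet2KO libraries. All 7 knockouts lay above the controls, with a log2 difference of 1.22 (SE 0.26, limma adjusted p 0.0309) for both and 1.51 (SE 0.31, 0.0314) for Vav1CreTet2KO. The call for both held in 10 of 17 alternatives and was lost without any of the controls (limma adjusted p 0.0702 to 0.251) or without Cd4CreTet2KO replicate 2 (0.0582). The Vav1CreTet2KO call held in 9 of 18 and was lost without any of the controls (0.0579 to 0.192) or without Vav1CreTet2KO replicate 2 (0.0505) or 3 (0.0617), all in limma. The Vav1CreTet2KO effect on Il7r was 2.34 (SE 0.51) more in CD8 than in CD4 cells, which did not pass (limma adjusted p 0.144). For Cd4CreTet2KO alone no gene of this list passed in limma, with 8 at an unadjusted p under 0.05. The smallest p there was that of Satb1, with 2.99 to 6.47 RPKM in CD8 controls and 8.17 to 23.02 in Cd4CreTet2KO libraries (1.37, SE 0.36, limma adjusted p 0.112), and DESeq2 on recovered reads called it (1.78, adjusted p 0.00595). The list's median was 0.87 for Vav1CreTet2KO, 1.00 for Cd4CreTet2KO and 1.05 for both, beside -0.11, -0.15 and -0.14 for all genes. In CD4 cells its medians were -0.19, -0.54 and -0.29, beside -0.16, 0.00 and -0.08, and none of its genes was called. The summed level of the list was 87.5 to 142.7 RPKM in CD8 controls and 170.2 to 341.0 in the CD8 knockouts. The highest sums, 341.0 in Cd4CreTet2KO replicate 3 and 338.3 in Vav1CreTet2KO replicate 3, were in the libraries with the most Klf2, Klf3 and S1pr1 in their groups.

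**Figure D4:**
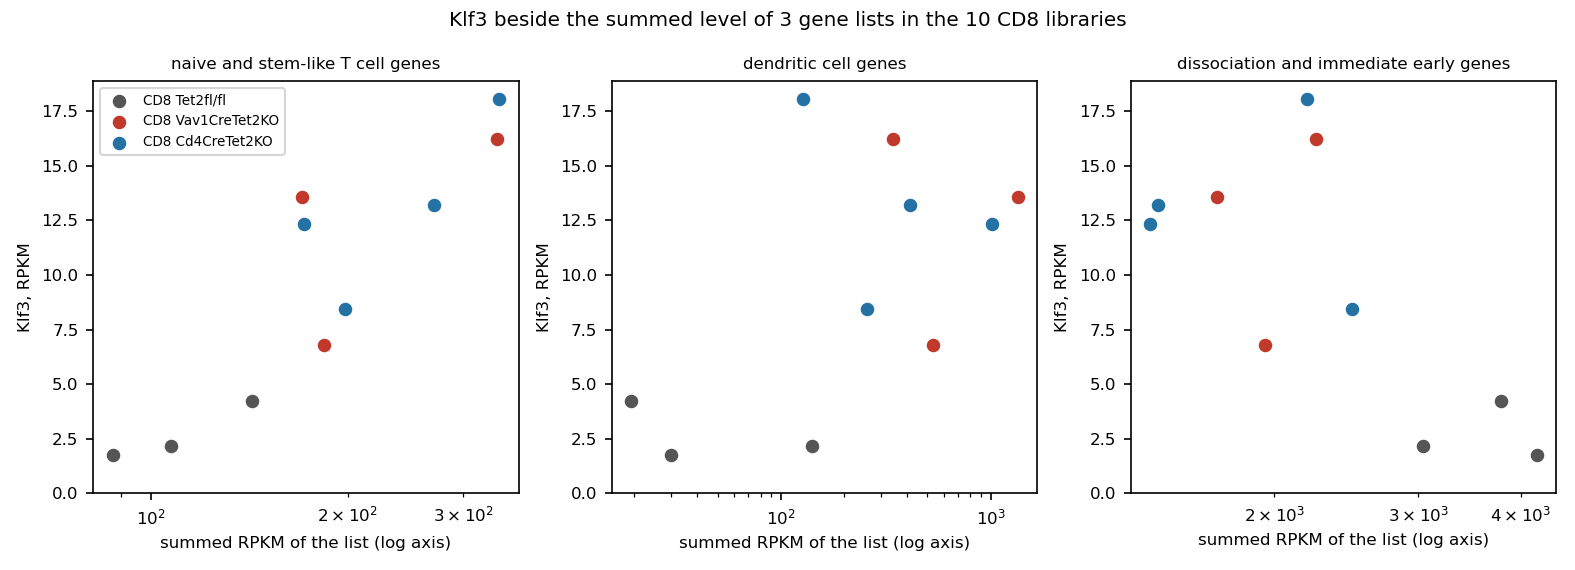
Klf3 level in RPKM (linear axis from 0) against the summed RPKM of 3 gene lists (log axes) in the 10 CD8 libraries. Controls are lowest in Klf3 and in the naive and stem-like sum (87.5 to 142.7) and highest in the dissociation sum (3042 to 4185). The dendritic cell sum is 19.3 to 140.5 in controls and 126.9 to 1351 in the knockouts.

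Of 12 tissue residency genes 1 was called lower in CD8 cells, Prdm1, which encodes the repressor Blimp-1. For both knockouts 3 of the 12 had a positive sign. At an unadjusted p under 0.05 in limma were 5 of them, beside 16.4% of all genes. Called lower were 0.489% of all genes for Cd4CreTet2KO and 1.8% for both, and 1428 of 10224 genes for Cd4CreTet2KO and 6.48% for both lay lower without overlap. Prdm1 read 12.1, 10.1 and 10.7 RPKM in controls, 1.99, 7.05 and 2.90 in Vav1CreTet2KO and 3.83, 1.81, 1.11 and 3.19 in Cd4CreTet2KO libraries, with no overlap. The log2 difference was -1.85 (SE 0.37, limma adjusted p 0.0496) for Cd4CreTet2KO and -1.62 (SE 0.34, 0.0286) for both. It did not pass for Vav1CreTet2KO (-1.40, 0.102). The call for both held in 8 of 17 alternatives and was lost without any of the controls (limma adjusted p 0.110 to 0.218), without Vav1CreTet2KO replicate 3 (0.0501) or without Cd4CreTet2KO replicate 2 (0.0608). The call for Cd4CreTet2KO held in 5 of 18 and was lost without any of the controls (limma adjusted p 0.152 to 0.355), without Vav1CreTet2KO replicate 3 (0.0521), or without any of the Cd4CreTet2KO libraries (0.0582 to 0.175). The residency list had a median of -0.51 for both in CD8 and -0.30 in CD4 cells, beside -0.14 and -0.08. In CD4 cells none of it was called, and the smallest p was that of the integrin gene Itgae in Vav1CreTet2KO cells (-1.96, SE 0.36, edgeR adjusted p 0.110).

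Neither the upstream pathway of KLF2 nor the rest of the KLF family held a called gene. Of 12 upstream genes (Foxo1, Foxo3, Foxp1, the ERK5 cascade, MEF2 factors and PI3 kinase regulators) 0 passed for both knockouts in CD8 cells in limma, with 2 at an unadjusted p under 0.05, and the median was 0.27 beside -0.14. The smallest p was that of Mef2c, at 0.0436 to 0.215 RPKM in CD8 controls and 0.652 to 3.79 in the knockouts (1.39, SE 0.37, limma adjusted p 0.0712). On reads recovered from RPKM it passed in edgeR (4.13, adjusted p 0.0139) and in DESeq2 (1.07e-08). Mef2c is also abundant in dendritic and B cells. B cell genes summed to at most 2.16 RPKM in controls and to 1.22 to 19.2 in knockouts, and their part was not tested. Of the other 13 KLF genes 6 were tested in CD8 and 9 in CD4 cells. In CD8 cells Klf4 had 14.3 to 23.7 RPKM in controls and 87.9, 73.7 and 22.5 in Vav1CreTet2KO libraries (1.52, SE 0.56, limma adjusted p 0.188), and 8.84 to 41.0 in Cd4CreTet2KO libraries. None of these KLF genes passed in any comparison with controls, with Klf4 at an unadjusted p under 0.05 for Vav1CreTet2KO in CD8 cells (limma). DESeq2 on recovered reads called that Klf4 difference (1.79, adjusted p 0.0216). In CD4 cells Klf9 was at an unadjusted p under 0.05 for Vav1CreTet2KO and for both knockouts (edgeR).

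Genes that make, degrade or carry sphingosine 1-phosphate and genes that act below CCR7 and S1PR1 held no call either. Of 8 genes of sphingosine 1-phosphate metabolism 3 were tested in CD8 cells, with 0 at an unadjusted p under 0.05 in limma for each comparison with controls. All 8 were tested in CD4 cells, with 1, Sphk1, at an unadjusted p under 0.05 in edgeR for each comparison with controls (adjusted p 0.306 to 1.00), beside 11.9% of all genes for Vav1CreTet2KO, 2.5% for Cd4CreTet2KO and 5.35% for both. Sphk1, a kinase that makes sphingosine 1-phosphate, was at 0 in all CD4 controls and at most 0.227 RPKM in the CD4 knockouts. Of 10 signalling genes 8 were tested in CD8 cells, with 1 at an unadjusted p under 0.05 in limma for both knockouts. That gene was Arrb2, which encodes β-arrestin 2 and acts in receptor desensitisation. It averaged 55.0 ± 4.37 RPKM (SD, n = 3) in CD8 controls and 32.1 ± 5.44 (n = 7) in the knockouts (-0.76, SE 0.19, limma adjusted p 0.0636). It passed in 2 of 17 alternatives, DESeq2 on recovered reads (adjusted p 0.0143) and limma without Vav1CreTet2KO replicate 2 (0.0305). Of the dissociation and immediate early list, 3 of 16 were called lower for both knockouts in CD8 cells, beside 1.8% of all genes. These were Hspa1a (-2.49, limma adjusted p 0.0257), Hspa1b (-2.66, 0.0278) and Jun (-1.05, 0.0489). None was called in CD4 cells, where 0% of all genes were called for both. At an unadjusted p under 0.05 were 4 of the 16 in CD8 (limma) and 8 in CD4 cells (edgeR). For all genes these shares were 16.4% and 5.35%. The list's medians for both were -0.17 in CD8 and -0.53 in CD4 cells, beside -0.14 and -0.08. Hspa1a and Hspa1b are near-identical heat shock genes, so reads may be split between them, and Jun passed in 2 of 17 alternatives. Hspa1a and Hspa1b passed in 10 and 9 of 16, and all 3 were lost without any of the controls.

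**Figure D5:**
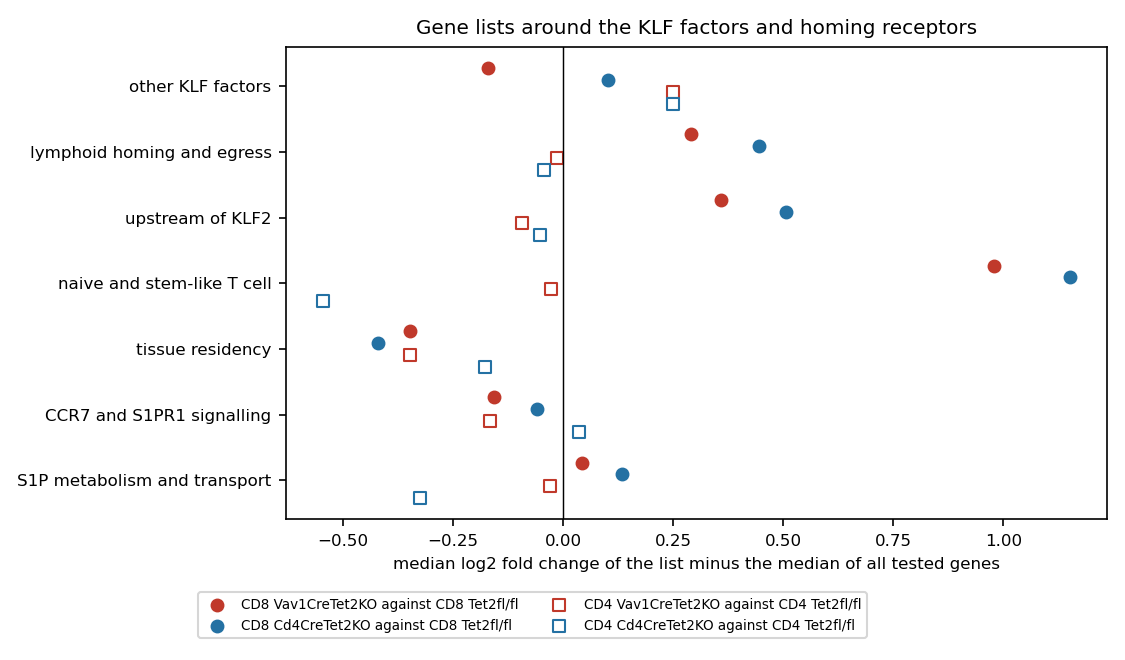
Median log2 fold change of each gene list minus the median of all tested genes in the same comparison (points), filled circles for CD8 and open squares for CD4 cells. Of the lists plotted, the naive and stem-like list lies farthest to the right in both CD8 comparisons.

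Part of the dendritic cell list was called higher beside Klf3 in CD8 cells, and 9 of its 10 genes had a positive sign for both knockouts. For both knockouts 4 of 10 were called, Flt3 (2.55, limma adjusted p 0.0149), H2-Ab1 (3.62, 0.0235), Clec9a (2.51, 0.0278) and Siglech (2.74, 0.0339), and for Vav1CreTet2KO 3 of 10. At most 1 of the 10 genes was at 0 in any CD8 library. By replicate, the sums were 29.9, 19.3 and 140.5 RPKM in CD8 controls, where Klf3 read 1.77, 4.22 and 2.17. In CD8 Vav1CreTet2KO libraries they were 1351, 532.6 and 342.9, with Klf3 at 13.6, 6.79 and 16.2. In CD8 Cd4CreTet2KO libraries they were 1014, 412.6, 126.9 and 258.2, with Klf3 at 12.3, 13.2, 18.05 and 8.43. In CD4 Vav1CreTet2KO libraries the sum was 158.7 to 367.0 RPKM, against 29.2 to 81.6 in CD4 controls. Klf3 in these groups read 3.66 to 20.4 and 7.24 to 9.24 RPKM. The part of these cells in the Klf3 levels was not tested.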

How the data were processed

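T cells from 19 samples of 11 mice were profiled by RNA sequencing, with groups, replicate and animal numbers taken from the labels. The kit was a stranded total RNA kit for low input, per the labels' protocols. The CD4 table held read counts and RPKM values made by the authors, and the CD8 table RPKM only, per the file headers, and 18 other per-sample columns were not used. The authors' log2 fold changes, p-values and false discovery rates were copied, not tested. The submitters' processing notes name GRCm38 and mm10, and the sources used here give no aligner. Of 25582 gene IDs in the GRCm38 annotation, 551 had the position the tables give.

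CD4 counts were tested with edgeR 4.0.16 (filterByExpr, TMM, quasi-likelihood, 9 libraries). CD8 RPKM were tested with limma 3.58.1 (trend, log2(RPKM + 1), at least 1 RPKM in at least 3 libraries, 10 libraries), and the interaction likewise over 19 libraries. Benjamini-Hochberg adjusted p under 0.05 over all tested genes made a call. Whole reads recovered from CD8 RPKM (100% of values within 0.01 of a whole number) served depth and the edgeR and DESeq2 1.42.0 alternatives. On these reads edgeR called 40 genes higher and 51 lower in CD8 Vav1CreTet2KO, and 36 higher and 28 lower in CD8 Cd4CreTet2KO. Of recovered values of 1 to 20, 50.6% were odd in CD8 Vav1CreTet2KO replicate 1 and 13.1% to 25.3% in the other CD8 libraries, so its depth may be in another unit. Both procedures were run on simulated counts for the Vav1CreTet2KO comparison only, edgeR in CD4 and limma in CD8 cells. The simulation held no difference in cell makeup between groups, so it cannot show how the tests behave under one. Members and gene lists were chosen with earlier results of these data known. After the values were seen, 1 gene was taken out of the homing and naive lists and is not reported here, so their counts and medians leave it out. Named were all members, up to 4 called genes per list and comparison by smallest p (otherwise the 1 with the smallest p), and the 3 genes most like each member with a mean of at least 5 RPKM. The list genes named in CD8 cells were put through the alternatives after seeing the data. Alternatives varied pseudocount, filter, scaling, samples fitted, blocking, tool and each library. The replicate numbers share no animal between genotypes (correlations of deviations from -0.08 to 0.10). CD8 and CD4 libraries of 8 animals are paired by the animal number in their labels (-0.06 to 0.33).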

Additional observations from a re-analysis of the deposited data

How the results depend on the processing

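Of the members' calls, Klf3 in CD8 cells for both knockouts together was kept under 15 of 17 alternatives. With the replicate number as a block it was 1.95 (limma adjusted p 0.0225), but that number names different animals in each genotype. For CD8 Vav1CreTet2KO the number of members called went from 1 to 0 with no filter, with only the groups compared, with the replicate block, with edgeR on recovered reads and without the pair of libraries with macrophage genes. For CD8 Cd4CreTet2KO it went from 1 to 0 with a pseudocount of 0.1, with no filter, with the replicate block and without that pair, and to 2 (Klf3 and S1pr1) with only the groups compared. Leaving out each library gave 0 to 1 members called for each of these 3 CD8 comparisons, and in CD4 cells for Vav1CreTet2KO, for both knockouts and between the knockouts. It gave 0 to 2 for the Vav1CreTet2KO interaction. Blocking on the animal called no interaction of a member, and the replicate block changed no other call of a member. The causes were not tested.

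Signs that turned were of uncalled values, except that Klf2 between the CD4 knockouts was called at -1.25 without Vav1CreTet2KO replicate 3 (edgeR adjusted p 0.04999). In CD8 Vav1CreTet2KO, Klf13 was 0.068 with size factors, 0.12 when edgeR was run on recovered reads and 0.12 when DESeq2 was, Ccr7 was 0.18 and 0.19 with these tools, and S1pr1 was -0.071 with a pseudocount of 0.1. In CD8 Cd4CreTet2KO, Klf6 was 0.032 with size factors, 0.085 with edgeR, 0.069 with DESeq2 and 0.13 without the macrophage pair. With the replicate block Klf6 was -0.010 for both in CD8, and in CD4 S1pr1 was -0.0012 for Vav1CreTet2KO and -0.035 for both, and Klf2 was -0.38 between the knockouts. With limma on CD4 RPKM, Klf3 was -0.11 (Vav1CreTet2KO), -0.041 (Cd4CreTet2KO), -0.078 (both) and -0.074 (between the knockouts), S1pr1 -0.14 (Vav1CreTet2KO) and -0.15 (both), Ccr7 -0.011 (both) and Klf2 -0.46 (between the knockouts).

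Leaving out each library turned further signs. For CD8 Vav1CreTet2KO the ranges were -0.015 to 0.86 (Klf2), -0.20 to 0.21 (Klf13), -0.82 to 0.72 (S1pr1) and -0.46 to 0.53 (Ccr7). For both in CD8 they were -0.028 to 0.16 (Klf6) and -0.17 to 0.42 (Ccr7), and between the CD8 knockouts -0.35 to 0.22 (Klf3) and -0.78 to 0.21 (Ccr7). For CD4 Vav1CreTet2KO they were -0.85 to 0.86 (Klf3), -0.74 to 0.016 (Klf13) and -0.71 to 0.58 (S1pr1), and for CD4 Cd4CreTet2KO -0.18 to 0.32 (Klf3), -0.36 to 0.21 (S1pr1) and -0.19 to 0.10 (Ccr7). For both in CD4 they were -0.38 to 0.48 (Klf3), -0.30 to 0.078 (Klf13), -0.38 to 0.29 (S1pr1) and -0.023 to 0.35 (Ccr7). Between the CD4 knockouts they were -1.25 to 0.50 (Klf2), -0.94 to 0.76 (Klf3) and -0.67 to 0.62 (S1pr1). For the interactions they were -0.68 to 0.86 (S1pr1) and -0.67 to 0.38 (Ccr7) in Vav1CreTet2KO and -0.070 to 0.46 (Klf6) in Cd4CreTet2KO.

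Over all genes, the number called ran from 0 to 931 for CD8 Vav1CreTet2KO (149 as reported), 0 to 606 for CD8 Cd4CreTet2KO (58) and 0 to 906 for both (259), and between the CD8 knockouts from 0 to 95 (0). In CD4 cells it ran from 0 to 819 for Vav1CreTet2KO (1), 0 to 47 for Cd4CreTet2KO (4), 0 to 129 for both (0) and 2 to 719 between the knockouts (9). For the interactions it ran from 0 to 155 (0) and 0 to 9 (7). For CD4 Vav1CreTet2KO, leaving out replicate 1, the shallowest library with 707866 reads on genes, gave 9 genes higher and 10 lower, and leaving out replicate 3 gave 396 and 423.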
